A study of Mus musculus with 12 samples.

Results

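Untreated 3T3-L1 preadipocytes were compared with 3T3-L1 cells that had received both lithium and the fat-cell induction mix MDI, on 6 of the 12 microRNA (miRNA) arrays of the series. The members were taken from the sample titles: the 3 arrays titled preadipocytes and the 3 titled MDI induction of Lithium treated preadipocytes. 3T3-L1 is a clonal mouse fibroblast line that accumulates fat after induction, and MDI is the mix of a phosphodiesterase inhibitor (3-isobutyl-1-methylxanthine), dexamethasone and insulin. The other 6 arrays held 3 samples of cells given MDI alone and 3 given lithium alone, and they enter only through the shared estimate of spread and a few values set side by side.

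Cells of both groups were grown in medium with fetal bovine serum. Preadipocytes carry no treatment in the labels, whereas the lithium plus MDI cells received lithium chloride at 25 mM and the induction mix. For induction without lithium the labels give MDI for 3 days, insulin for 2 days and plain medium for 2 days, ending on day 7. The labels used here give no schedule for either compared group, so treatment and time in culture cannot be told apart. Lithium inhibits the kinase GSK3, and the submitters used it to switch WNT signalling on; adding MDI asked whether such cells could still become fat cells. The arrays measured miRNAs alone, so lipid and the messenger RNAs of fat cells were not assayed. Separate cultures for the 3 samples of a group are not stated in the labels; the p-values below reflect the spread among these samples alone, and that spread may be technical. In bulk RNA, a change in the share of cells that hold a miRNA and a change in its amount per cell cannot be told apart.

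A miRNA pairs through its seed, bases 2 to 8 from its 5′ end, with sites in messenger RNAs and lowers the protein made from them. In fat cell formation, miR-27 is known to restrain the receptor PPARγ, which drives the program, miR-143 to favour it, and members of the miR-17-92 cluster to act in the cell divisions that precede it. WNT signals hold preadipocytes in their undifferentiated state, and the hormones and raised cAMP of induction release them from it.

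The mature sequences of the miRNAs on which the results turn are given from RefSeq (mouse GRCm38.p6), with the seed in capitals. miR-27a and miR-31* are the pair that passed the threshold, and miR-27b and miR-31 are shown as the miRNA with the same seed and the miRNA from the same hairpin.
miR-27a: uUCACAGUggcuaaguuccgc
miR-27b: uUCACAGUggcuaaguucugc
miR-31*: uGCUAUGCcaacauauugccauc
miR-31: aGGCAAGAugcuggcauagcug
The next set holds 4 miRNAs of the miR-17-92 cluster and its paralogous clusters that share the seed AAAGUGC and all had positive differences. Of all tested miRNAs 67.5% had positive differences.
miR-20a: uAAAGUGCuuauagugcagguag
miR-20b: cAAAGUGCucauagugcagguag
miR-93: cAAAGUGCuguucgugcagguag
miR-106b: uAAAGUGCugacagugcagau
The miR-29 guides share AGCACCA, and each had groups that did not overlap, higher in lithium plus MDI cells, as 14% of tested miRNAs did.
miR-29a: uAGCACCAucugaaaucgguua
miR-29b: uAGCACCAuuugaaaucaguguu
miR-29c: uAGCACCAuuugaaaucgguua
The last set holds miRNAs with negative differences, with miR-10a beside miR-10b because they share ACCCUGU and had differences of opposite sign.
miR-210: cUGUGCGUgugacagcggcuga
miR-10b: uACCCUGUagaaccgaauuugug
miR-10a: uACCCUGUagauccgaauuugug
miR-181a: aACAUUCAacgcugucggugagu
miR-181b: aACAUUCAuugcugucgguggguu

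Values are log2 of the background-subtracted probe signal with every array scaled to the 75th percentile of the 181 mouse probes that all 12 arrays detected. Arrays give no counting depth, and precision is limited by their number: the median standard error (SE) of a difference was 0.34 on the log2 scale. The compared arrays detected 133 to 175 of 611 mouse miRNAs each, and 157 miRNAs were tested, namely those detected on all 3 arrays of at least 1 of the 4 groups. Of the 157, 121 were fully detected in both compared groups, 7 in lithium plus MDI cells alone, 11 in preadipocytes alone, and 18 in neither. The preadipocyte arrays were on slide 1 and the lithium plus MDI arrays on slide 2, with scan time changing with the slide, so slide and group cannot be told apart except through the 1 MDI array on slide 1.

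Some arrays stood apart from their group. Over the tested miRNAs, the mean correlation of lithium plus MDI array 3 was 0.924 with arrays 1 and 2 of that treatment but 0.965 with the preadipocytes. For preadipocyte array 3 it was 0.939 with the other preadipocytes but 0.957 with the lithium arrays. Lithium plus MDI arrays 1 and 2 correlated at 0.978 with each other and at means of 0.974 and 0.966 with the MDI arrays. Some results that rest on these arrays are therefore given with and without them, and the rest with all arrays only. Of 28 marker miRNAs of epithelium, muscle, blood, neural tissue, liver and endothelium, 25 lay at the signal floor on all 6 arrays; the epithelial miR-205 was detected on a preadipocyte array and the neural miR-128 in both groups, while the muscle miR-1, the liver miR-122 and the neuronal miR-124 were among those at the floor. The summed scaled signal of the neural list was 0.162 to 0.212 in preadipocytes and 0.171 to 0.200 in lithium plus MDI cells, and that of the epithelial list 0.224 to 0.227 and 0.224.

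Two-sided limma tests with Benjamini-Hochberg adjustment over 157 miRNAs (threshold 0.05) found 2 miRNAs higher in lithium plus MDI cells than in preadipocytes and 0 lower, 1.27% and 0% of those tested. Both were higher by more than 2-fold: miR-27a, which restrains fat cell formation, and miR-31*, the passenger strand of the miR-31 hairpin. At an unadjusted p under 0.05 there were 27 miRNAs (17.2%), 23 higher (14.6%) and 4 lower (2.55%). The 3 arrays of one group lay wholly apart from the 3 of the other for 28 miRNAs (17.8%), 22 of them higher in lithium plus MDI cells (14%) and 6 lower (3.82%). The whole distribution was shifted: 106 of 157 differences were above 0 (67.5%), with a median of 0.30, so a difference of 0.30 is the level of the middle tested miRNA.

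miR-27a read 0.94, 1.06 and 1.01 on the preadipocyte arrays and 2.38, 2.04 and 2.50 on the lithium plus MDI arrays. The preadipocyte values lay within a narrow band and every lithium plus MDI value lay above it, array 3 included. Group means were 1.00 ± 0.06 and 2.31 ± 0.24 (SD, n = 3 each), and miR-27a thus rose by 1.31 log2 units, or 2.47-fold (SE 0.23, limma adjusted p = 0.0133). This lay 1.01 higher than the median difference. A second probe for miR-27a gave 1.46. Without any scaling the intensities were 961, 1202 and 1567 in preadipocytes and 1381, 1632 and 2702 in lithium plus MDI cells, so these groups overlapped before scaling.

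The sign of the miR-27a difference was positive under all 31 alternatives and it passed the threshold in 22, over which the adjusted p ranged from 0.000881 to 0.575. The call was lost with the all-probe percentile, taken from every mouse probe whether detected or not (difference 0.26, limma adjusted p = 0.575), without scaling (0.58, 0.168), with normexp background correction (1.41, 0.331), in the authors' deposited table (1.24, 0.0688), with the slide as a fixed block (1.68, 0.0535), without preadipocyte array 1 (1.27, 0.0723) and without lithium plus MDI array 1 (1.27, 0.099). It was also lost with the spread taken from the 6 arrays alone, at an adjusted p of 0.149, or 0.073 with the replicate block on those arrays. On slide 1 itself, MDI array 1 read 2.12 beside the preadipocytes' 0.94 to 1.06. In the groups given 1 agent, miR-27a read 1.72 to 2.12 with MDI and 1.55 to 1.77 with lithium, again above all preadipocyte arrays. Those differences were 0.87 (adjusted p = 0.0595) and 0.62 (0.124), and neither passed. The 3 comparisons share the preadipocyte arrays.

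miR-27a lies at chr8:84208727-84208747 on the plus strand of GRCm38.p6, in no other gene's span in the RefSeq table, within 297 bases of the hairpin starts of miR-23a and miR-24-2. These neighbours are made from the same short stretch, but only miR-27a passed. miR-23a had a difference of 0.29, miR-24-2* one of 0.77 and miR-24, which a locus on chromosome 13 also encodes, one of 0.45. miR-27b, which shares the miR-27a seed and lies in the Aopep span on chromosome 13, read -0.87, -0.54 and -2.83 in preadipocytes and -0.15, -0.29 and -0.82 in lithium plus MDI cells. Its difference was 1.00 (SE 0.54, adjusted p = 0.377), and the groups overlapped, as lithium plus MDI array 3 lay below preadipocyte array 2. Preadipocyte array 3 lay far below all other arrays of both groups. Over the 5 members of the miR-23, miR-27 and miR-24 clusters, 1 rose, 0 fell and all 5 differences were positive. Over all tested miRNAs 1.27% rose and 67.5% of differences were positive. The cluster median was 0.45 against 0.30 for all tested miRNAs. Without preadipocyte array 3, 4 of the 5 were positive, with a median of 0.09 against 0.12 for all tested miRNAs.

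miR-31* read -3.86, -3.92 and -4.41 in preadipocytes and -2.31, -2.21 and -3.22 in lithium plus MDI cells. The groups did not overlap, although lithium plus MDI array 3 was the lowest of its group. Group means were -4.07 ± 0.30 and -2.58 ± 0.56 (SD, n = 3 each), and miR-31* rose by 1.48, or 2.79-fold (SE 0.31, limma adjusted p = 0.0308), with 1.54 from its second probe. The signal was dim: unscaled intensities were 34.6, 38.0 and 36.6 against 53.5, 85.4 and 51.0, and they did not overlap either.

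The miR-31* call held under fewer settings, with a positive sign under all 31 alternatives and the threshold passed in 14. It fell short with quantile normalization (1.06, limma adjusted p = 0.0509), no scaling (0.76, 0.118), the all-probe percentile (0.43, 0.329), normexp (0.16, 0.977) and the authors' deposited table (1.00, 0.128). It also fell short with the slide as a fixed block (1.14, 0.441) or a random block (1.44, 0.108), with the 6 arrays alone (0.197, or 0.073 with the replicate block), and without preadipocyte array 1 (0.0723), 2 (0.0583) or 3 (0.108), lithium plus MDI array 1 (0.219) or 2 (0.174), MDI array 2 (0.056), or lithium array 2 (0.0527) or 3 (0.0561). In the normexp setting an offset of 50 was added to every signal, beside unscaled miR-31* intensities of 34.6 to 85.4. Such an offset makes log2 differences between dim signals smaller. The guide strand miR-31, cut from the same hairpin at chr4:88910557-88910662 within the span of Gm49890, had a difference of 0.48 (SE 0.41, adjusted p = 0.529) with overlapping groups. With MDI alone miR-31* differed by 1.40 (SE 0.31, adjusted p = 0.0277) and with lithium alone by 0.75 (0.163).

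**Figure D1:**
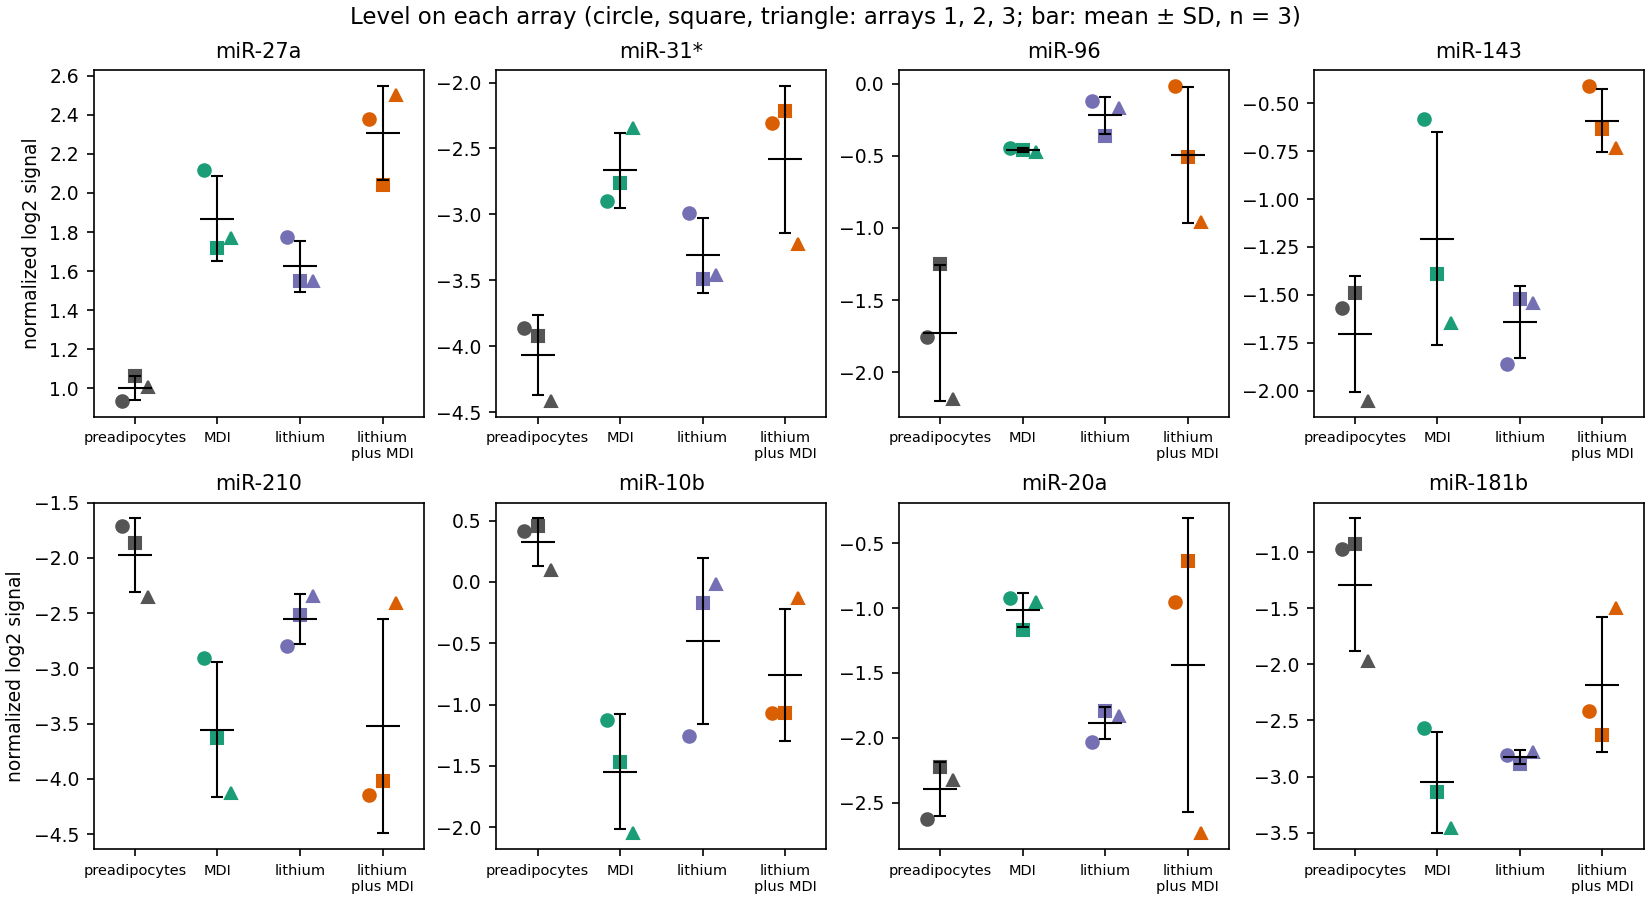
Normalized log2 signal of 8 miRNAs on each of the 12 arrays, by group; points are arrays, bars the mean ± SD (n = 3). miR-27a on every lithium plus MDI array lay above every preadipocyte array, while for miR-181b array 3 (triangle) lay among the preadipocytes and for miR-20a just below them, away from arrays 1 and 2.

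Among miRNAs that missed the threshold but whose groups lay apart, miR-96 had the smallest p. It belongs to the cluster of miR-183, miR-96 and miR-182, known for its part in sensory cells, and lies in the Mirc35hg span on chromosome 6. miR-96 read -1.75, -1.25 and -2.19 in preadipocytes and -0.02, -0.51 and -0.96 in lithium plus MDI cells. Every lithium plus MDI value was higher than every preadipocyte value, and the difference was 1.24 (SE 0.30, limma adjusted p = 0.0574). It passed in 6 of 31 alternatives. In the cells given 1 agent its differences were 1.27 with MDI (adjusted p = 0.0277) and 1.51 with lithium (0.0105). The other cluster members had differences of 1.17 for miR-182 and 0.47 for miR-183, with overlapping groups.

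miR-143 and miR-145 come from a common precursor; miR-143 is known to favour fat cell formation and miR-145 to act in smooth muscle. miR-143 read -1.57, -1.49 and -2.05 in preadipocytes and -0.41, -0.63 and -0.73 in lithium plus MDI cells. The groups lay apart with all 3 treated arrays close together, and the difference was 1.11 (SE 0.30, limma adjusted p = 0.0981). With lithium alone the difference was 0.06 and with MDI alone 0.50. miR-145, which was dim and at the floor on 2 preadipocyte arrays, had a difference of 0.79 (adjusted p = 0.216). It was detected on 2 preadipocyte, 1 MDI, 2 lithium and 3 lithium plus MDI arrays. It was thus tested only through the group where it was high, and its difference carries that selection.

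The miR-29 guides, known as repressors of collagens and other matrix proteins, lay apart in all 3 cases. Of all tested miRNAs 14% lay apart with higher lithium plus MDI values. miR-29b read 0.14, 0.52 and -0.72 in preadipocytes and 0.98, 0.74 and 1.26 in lithium plus MDI cells. Its difference was 1.01, that of miR-29c 0.58 and that of miR-29a 0.40 (limma adjusted p 0.244, 0.244 and 0.497), so none passed. Without scaling the groups of all 3 overlapped, and the mean intensity was lower in lithium plus MDI cells for miR-29c (80.5 against 87.2) and miR-29a (1936 against 2402).

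miR-16, of a family known to hold back the cell cycle, read 0.08, 0.09 and 0.27 in preadipocytes and 0.92, 0.79 and 0.69 in lithium plus MDI cells. These groups lay apart, with a difference of 0.65 (SE 0.24, limma adjusted p = 0.216). miR-30c, of a family linked to fat cell formation, likewise lay apart, at -1.29, -1.24 and -1.05 against -0.43, -0.62 and -0.48 (0.68, adjusted p = 0.244). Without scaling both directions flipped, with mean intensities of 695 and 652 for miR-16 and 275 and 265 for miR-30c. miR-212, whose locus is known to respond to the cAMP-dependent factor CREB, read -3.71, -4.38 and -4.97 against -2.99, -3.68 and -3.05 (1.11, adjusted p = 0.187). miR-218, reported to act on WNT inhibitors in bone cells, read -4.22, -3.70 and -2.99 against -2.25, -2.95 and -2.66 (1.01, adjusted p = 0.187). For these 4, a difference of 0.30 was the median of all tested miRNAs, and each stood above it.

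The remaining miRNAs named for groups that lay apart with higher lithium plus MDI values were miR-669f, miR-298, miR-30e*, miR-374, miR-149, miR-106b, miR-877*, miR-466f-3p and miR-467f, with differences of 0.40 to 1.03 and limma adjusted p of 0.156 to 0.448. Over all 22 miRNAs whose scaled groups lay apart with higher lithium plus MDI values, the unscaled groups overlapped for 20, all but miR-31* and miR-96, and the unscaled mean was lower in lithium plus MDI cells for 9. Most of the 9 just named were dim. miR-669f and miR-877* were detected on 1 preadipocyte array each and on all 3 lithium plus MDI arrays. Values at the floor have no order, and the preadipocyte arrays held more of them: 19, 24 and 31 of 157 tested values, against 5, 10 and 10 on the lithium plus MDI arrays. The floor, set on the scaled values, stood at an intensity of 16.1 to 24.9 in preadipocytes and 8.47 to 15.2 in lithium plus MDI cells. Among the dimmer 79 miRNAs 64 differences were positive, with a median of 0.37; among the brighter 78, 42 were positive, with a median of 0.05. The part of the floor in these differences was not tested.

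**Figure D2:**
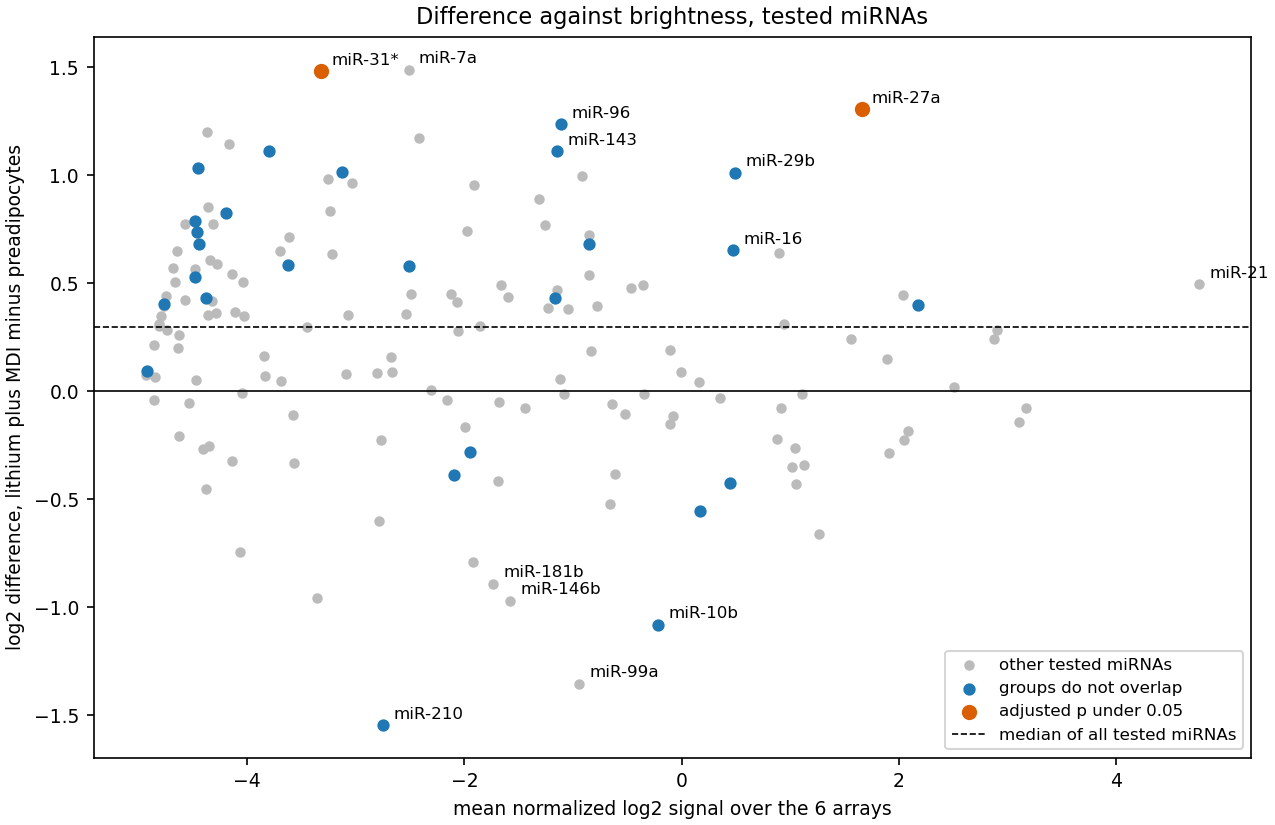
Log2 difference between lithium plus MDI cells and preadipocytes (y) against mean normalized log2 signal over the 6 arrays (x) for the 157 tested miRNAs. The median line at 0.30 lies above 0, positive differences are most frequent among dim miRNAs, and miR-27a and miR-31* are the pair past the threshold.

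On the lower side, miR-210 had the most negative difference of all tested miRNAs. It is the miRNA best known for its response to low oxygen, and the study followed it. miR-210 read -1.71, -1.86 and -2.35 in preadipocytes and -4.14, -4.02 and -2.40 in lithium plus MDI cells. Arrays 1 and 2 of the treated group lay well below all preadipocytes, but array 3 lay only just below preadipocyte array 3. The difference was -1.55 (SE 0.44, limma adjusted p = 0.113), with detection on 2 of 3 lithium plus MDI arrays. Its unscaled intensities were 153, 158 and 153 against 15, 24.5 and 90.0, so the groups lay apart without scaling too. Its sign was negative under all 30 alternatives that tested it, and it passed in 4, among them the fit without lithium plus MDI array 3 (-2.10, adjusted p = 0.002). With MDI alone its difference was -1.58 (0.0614) and with lithium alone -0.58 (0.429).

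miR-10b, which lies within the spans of Hoxd3 and Hoxd4 on chromosome 2, read 0.41, 0.46 and 0.10 in preadipocytes and -1.07, -1.07 and -0.14 in lithium plus MDI cells. The groups did not overlap, with array 3 again nearest to the preadipocytes. Its difference was -1.08 (SE 0.38, limma adjusted p = 0.21) and its second probe gave -0.95. With MDI alone it was -1.87 (adjusted p = 0.0263) and with lithium alone -0.80 (0.225). miR-10a, with the same seed and a place in the Hoxb3 span on chromosome 11, had a difference of 0.35 with overlapping groups.

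miR-181a and miR-181b, known from lymphocyte development, are paired at loci on chromosomes 1 and 2. miR-181b read -0.97, -0.93 and -1.97 in preadipocytes and -2.41, -2.63 and -1.50 in lithium plus MDI cells. Array 3 of each group lay inside the other group's range. The differences were -0.89 for miR-181b (limma adjusted p = 0.244) and -0.79 for miR-181a (0.312), and without lithium plus MDI array 3 both passed, at -1.23 (0.0289) and -1.27 (0.0154). Groups also lay apart, with lower lithium plus MDI values, for miR-1224 (-0.55), miR-361 (-0.39), miR-103 (-0.42) and miR-100 (-0.28), with limma adjusted p of 0.431 to 0.603. miR-103 is known from insulin sensitivity, and miR-100 is of one family with miR-99a. miR-99a itself had a difference of -1.35 with overlapping groups: the preadipocyte arrays read -0.85, -0.94 and 0.98, and the lithium plus MDI arrays -2.20, -2.53 and -0.15. Array 3 was the highest of each group, and that of lithium plus MDI lay above preadipocyte arrays 1 and 2.

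**Figure D3:**
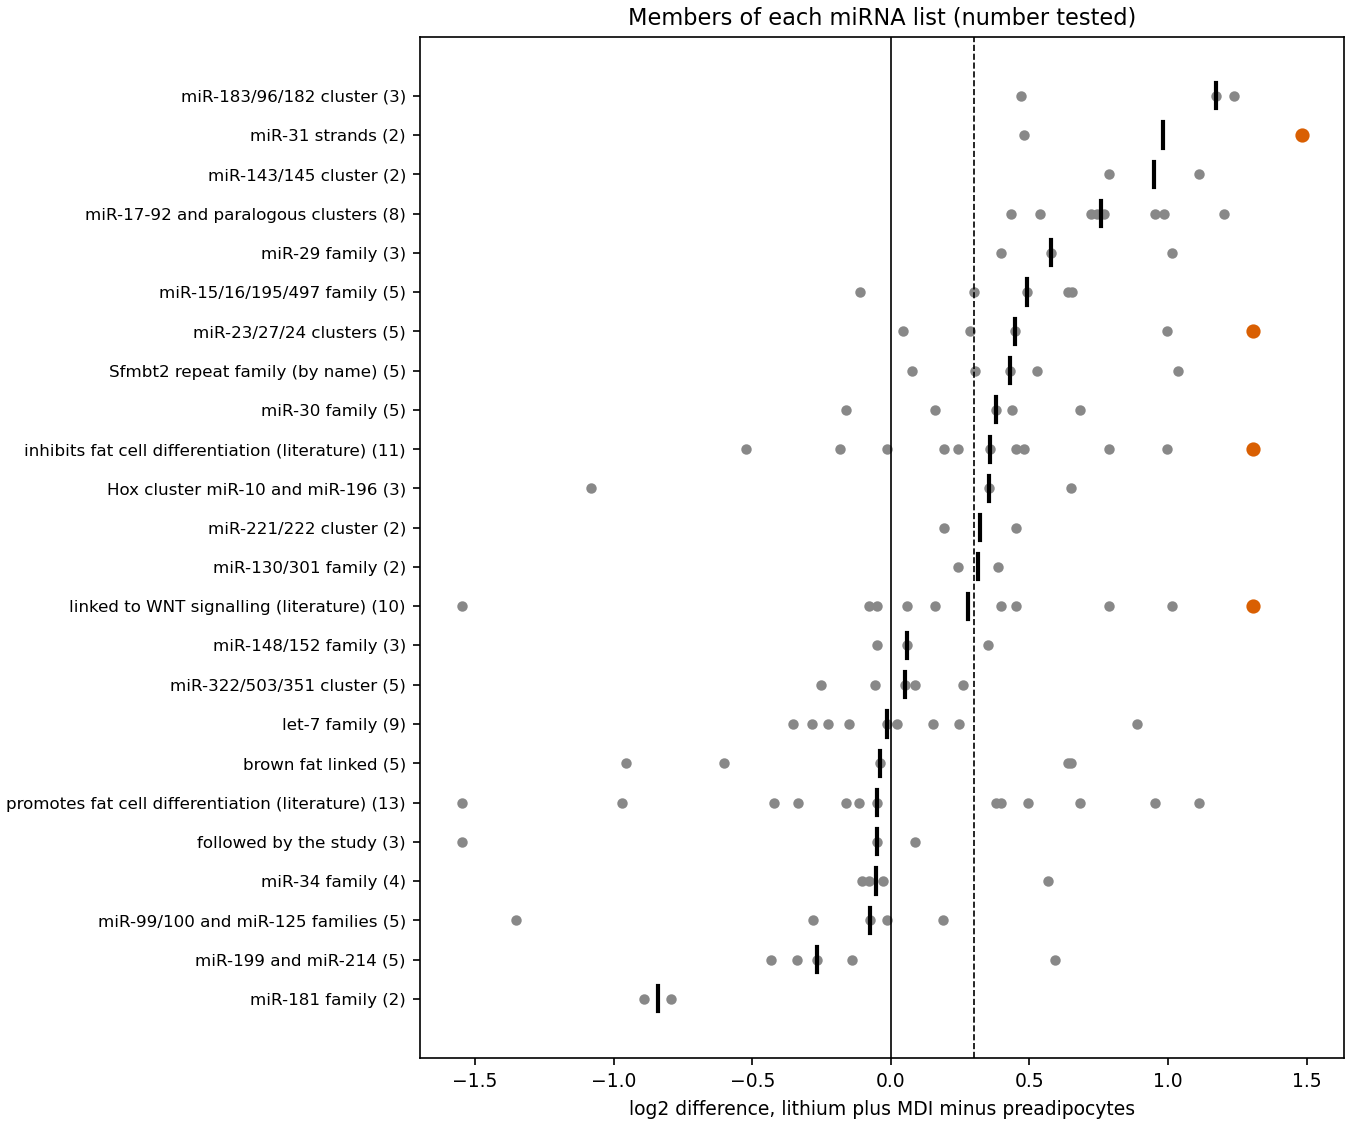
Log2 difference of each tested member (grey points; orange for the pair past the threshold) of 24 lists of miRNAs, with the list median (black bar) and, dashed, the median of all tested miRNAs. List medians ran from -0.84 for miR-181 to 1.17 for the miR-183 cluster.

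Lists of miRNAs were described by counts and medians against the background of 1.27% called, 67.5% of differences positive and a median of 0.30. Of 13 tested miRNAs reported to promote fat cell formation, 0 rose and 0 fell, 6 differences were positive and 7 negative, and the median was -0.05. This list held miR-143 and miR-30c, with positive differences, and miR-210 and miR-103, with negative ones. Of 11 reported to inhibit it, 1 rose (miR-27a) and 0 fell, with 8 positive and 3 negative differences and a median of 0.36. Among them miR-130a, which targets PPARγ as well, had a difference of 0.24, and miR-155, known from inflammation, -0.52. Without preadipocyte array 3 the medians were 0.10 for the 13 and 0.03 for the 11, against 0.12 over all tested miRNAs. Of 10 linked to WNT signalling, 1 rose (again miR-27a), 0 fell, 7 were positive and the median was 0.28.

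No member of the families of let-7, miR-30, miR-15/16, miR-29, miR-34 or miR-148 passed, where 1.27% of all tested miRNAs did. The let-7 family, known to act against growth, had 4 positive and 5 negative differences among 9 members, a median of -0.01, and its highest value in miR-98 (0.89, limma adjusted p = 0.244). The median was 0.38 for the 5 miR-30 guides, 0.49 for the 5 miR-15/16 members, -0.05 for the 4 miR-34 members and -0.26 for the 5 strands of the mesenchymal miR-199 and miR-214. Among 5 miRNAs linked to brown fat the median was -0.04, the value of miR-365. Differences were negative for miR-455 (-0.96) and miR-193b (-0.60) and positive for miR-196a (0.65) and miR-193 (0.64). miR-196a lay at the floor on all preadipocyte arrays. Of the 47 miRNAs of the imprinted Dlk1-Dio3 cluster on the array, 1 was tested, miR-494, with a difference of -0.42. Of 39 miRNAs placed in the Sfmbt2 repeat family by name alone, 5 were tested. The tested miR-467f lies in the Fxr2 span on chromosome 11. All 5 differences were positive, with a median of 0.43, beside 67.5% positive over all tested miRNAs. miR-466g and miR-466i lay at the floor on all preadipocyte arrays, so their differences could not be negative. Without scaling, mean intensity was lower in lithium plus MDI cells for miR-466f-3p, miR-467f and miR-466g, and higher for miR-669f and miR-466i. With normexp 0 of the 5 differences were positive.

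Of the miRNAs that the study itself followed, chosen on these samples, 3 were tested and 0 passed, against 1.27% of all tested miRNAs. miR-148a, which is linked to WNT ligands, read -1.89, -1.72 and -1.36 in preadipocytes and -1.71, -1.96 and -1.45 in lithium plus MDI cells. Those values overlap throughout, and the difference was -0.05 (SE 0.41, limma adjusted p = 0.959). miR-322, the mouse counterpart of miR-424, read -1.28, -0.94 and 2.05 against -0.09, -0.38 and 0.56, a difference of 0.09 (SE 0.72). Preadipocyte array 3 alone made up the upper end of its range. Passenger strands other than miR-31* gave 0 calls, against 1.27% of all tested miRNAs. Over all 17 tested, 14 differences were positive, with a median of 0.42, against 67.5% and 0.30 over all tested miRNAs. Most of these strands were dim, and among the dimmer 79 tested miRNAs 64 differences were positive, with a median of 0.37. The 5 miRNAs with the highest probe signal, taken by the naming rule, had differences of 0.50 for miR-21, 0.24 for let-7f, 0.29 for miR-23a, -0.08 for miR-125b-5p and -0.14 for miR-199a-3p, none past the threshold.

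The miR-17-92 cluster on chromosome 14 and its copies on chromosomes 5 and X, all tied to cell division, gave 8 tested members with 0 called. All 8 differences were positive, from 0.43 to 1.20, with a median of 0.76. Of all tested miRNAs 1.27% were called, and 67.5% of differences were positive, with a median of 0.30. miR-20a, one of the 4 with the seed AAAGUGC, read -2.63, -2.23 and -2.33 in preadipocytes and -0.95, -0.63 and -2.74 in lithium plus MDI cells. Arrays 1 and 2 of the treated group lay above all preadipocytes and array 3 below them. The difference was 0.95 (SE 0.42, limma adjusted p = 0.255). miR-18a stood at the floor on all 3 preadipocyte arrays and on lithium plus MDI array 3, and read -3.36 and -2.97 on arrays 1 and 2. miR-92a had the same form, at -0.90, -1.06 and -1.70 against 0.23, 0.51 and -2.23. miR-106b alone among the 8 had groups that lay apart, at -1.57, -1.20 and -1.39 against -0.94, -0.99 and -0.94. Of all tested miRNAs 14% lay apart with higher lithium plus MDI values. Without scaling the miR-106b groups overlapped, with mean intensities of 239 in preadipocytes and 196 in lithium plus MDI cells. The median of the 8 turned to -0.29 with the all-probe percentile.

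Array 3 moved many results at once. For 106 of 157 miRNAs (67.5%) it lay nearer to the preadipocyte mean than to the mean of lithium plus MDI arrays 1 and 2. Without it, 36 miRNAs passed (22.9%), 29 higher (18.5%) and 7 lower (4.46%), and miR-27a (1.21, limma adjusted p = 0.00532) and miR-31* (1.80, 0.00148) were among them. So were 7 of the 8 members of the miR-17-92 clusters, among them miR-18a (1.80), miR-20b (1.62), miR-20a (1.60) and miR-92a (1.59). miR-96 (1.47) and miR-182 (1.70), miR-143 (1.18) and miR-145 (1.05), and miR-98 (1.28) passed too, although miR-145 was tested only through its detection in lithium plus MDI cells. The 7 lower were miR-210 (-2.10), miR-99a (-2.09), miR-455 (-1.41), miR-10b (-1.39), miR-181a (-1.27), miR-181b (-1.23) and miR-582-5p (-0.81). miR-7a, within the Hnrnpk span at one of its loci, passed at 2.57. Without preadipocyte array 3 as well, 26 passed (16.6%), 19 higher (12.1%) and 7 lower (4.46%), with 7 of the 8 cluster members again among them. The fit without both arrays was added after their values were seen. Whether array 3 or arrays 1 and 2 stand nearer to the treated state was not tested.

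**Figure D4:**
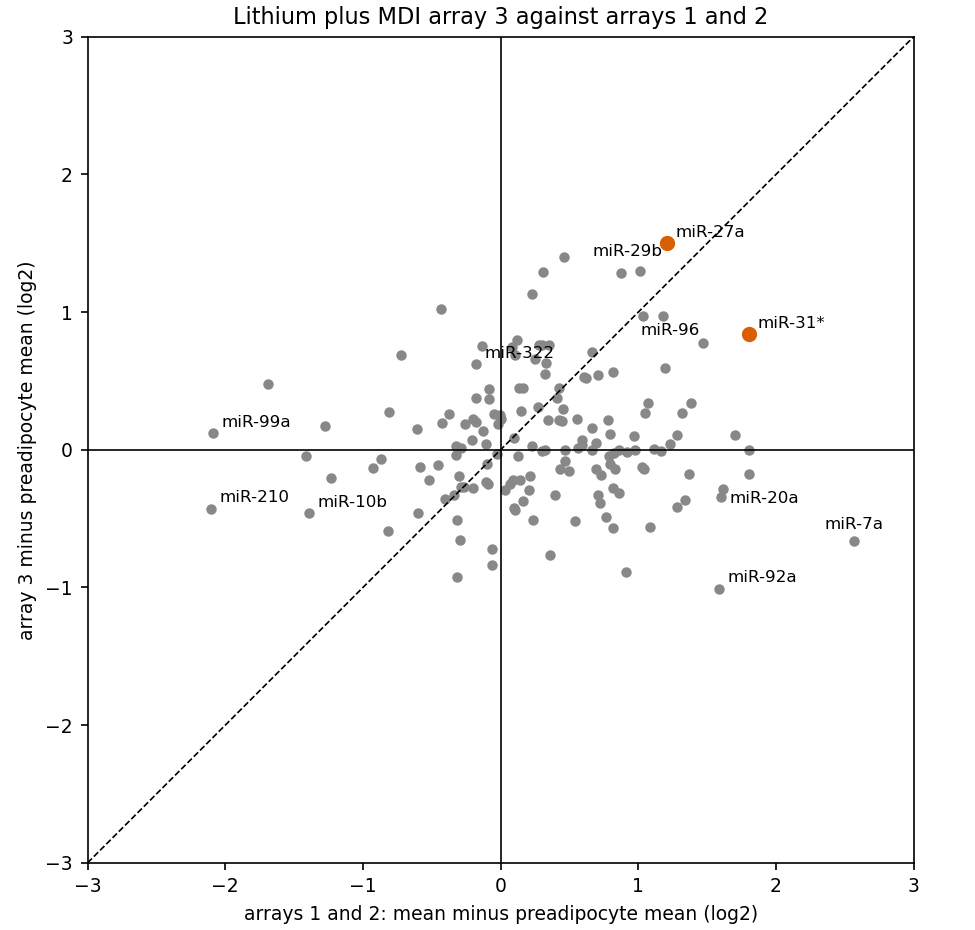
For each tested miRNA, lithium plus MDI array 3 minus the preadipocyte mean (y) against the mean of arrays 1 and 2 minus the same mean (x), in log2 units; orange marks miR-27a and miR-31*, and points on the dashed line would be equal. Some points far along x lie near 0 on y or on its other side, such as miR-99a, miR-20a and miR-7a, whereas miR-27a and miR-29b are high on both.

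The direction of the calls depended on the scaling. When the percentile was taken from all mouse probes, detected or not, 0 miRNAs passed as higher (0%) and 44 as lower (28%), with a median difference of -0.65, against 2 and 0 in the scaling used above. That percentile was an intensity of 3.13 to 5.67 on the 6 arrays, below the floor of 8.47 to 24.9. Only 19.3% to 24.2% of their mouse spots were well above background, so arrays were divided by undetected signal in this setting. With quantile normalization 1 passed, miR-27a, and the median was -0.02. In the table that the authors deposited, no miRNA passed and the median was -0.01, and with no scaling 2 passed, both lower (miR-423-5p and miR-151-5p), at a median of -0.33. Relative to the median of the same setting, miR-27a stood above and miR-210 below it in each of these.

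**Figure D5:**
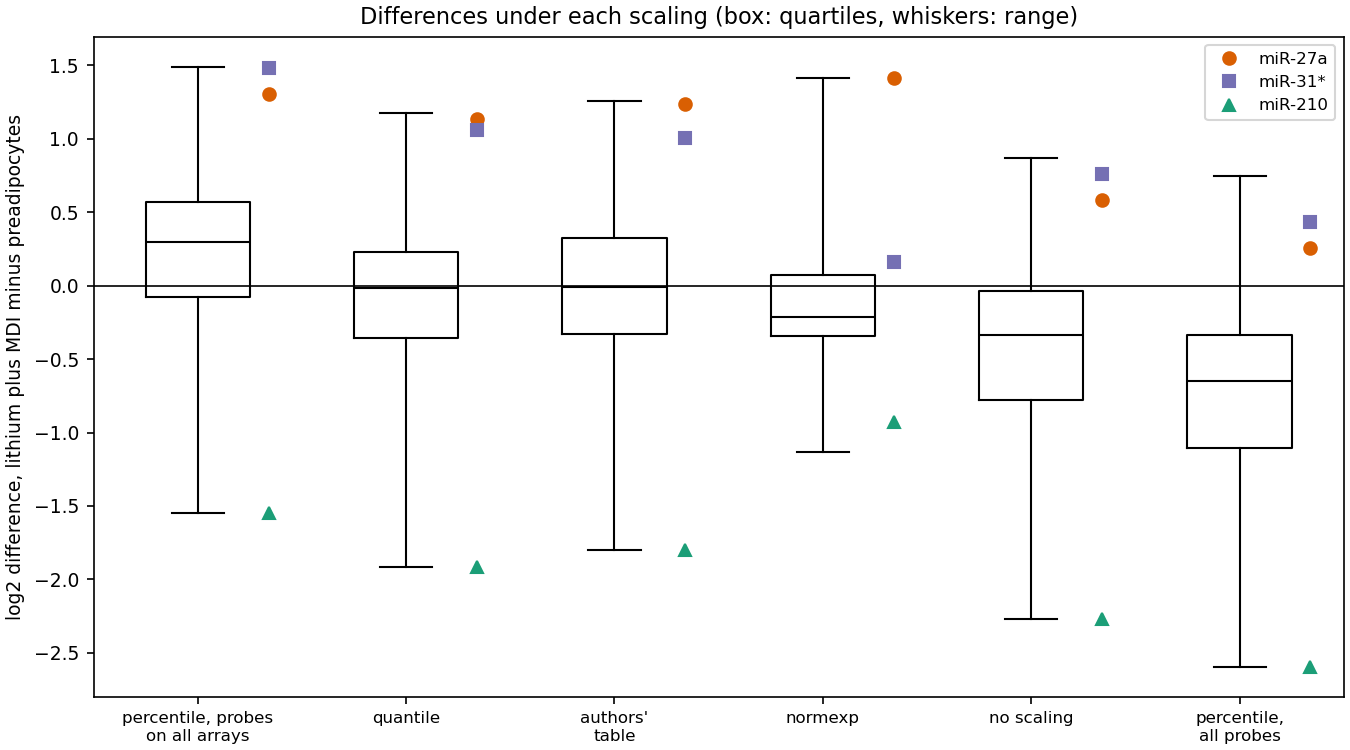
Log2 differences of the tested miRNAs under 6 ways of scaling or correcting the arrays (box: quartiles and median; whiskers: range), with miR-27a, miR-31* and miR-210 marked. The median runs from 0.30 to -0.65, while miR-27a lies above and miR-210 below the box in every column.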

How the data were processed

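RNA of 0.5 ug per sample was labelled with Cy3 and hybridised to Agilent miRNA arrays. The deposited scanner files give spot intensity that the authors' Agilent Feature Extraction had background-subtracted without normalization between arrays; it is version 10.5.1.1 per the file headers and 9.5.3 per the submitters' processing notes. The authors also deposited a table of values per miRNA, read as log2 because each of its columns correlated at 0.997 or above with the log2 total signal of its array; its steps are not given in the sources used here, and it served as an alternative. Its column medians were 0.00175 to 0.0958 and its columns share one maximum, so centring and the treatment of dim signals stay unknown.

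Outlier spots were dropped, spots of a probe averaged, arrays divided by their 75th percentile over probes detected on all 12 arrays, and values floored at the 5th percentile of detected probes (-4.97 in log2). Detection required over 50% of the remaining spots of a probe to be well above background, and the brightest probe stood for a miRNA. limma 3.58.1 (R 4.3.3) was fitted to 4 group means on 12 arrays, without a block, with Benjamini-Hochberg adjustment at 0.05, and tested on simulated data. The normexp alternative used median spot signals and an offset of 50. matplotlib 3.10.9 drew the figures. Of the tested values on the 6 arrays, 10.5% lay at the floor.

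The members and the 25 lists were chosen with earlier results of these data known. Named were all past the threshold, then those with the smallest p among groups that did not overlap until 24 were reached, the 5 with the highest signal, the study's own, and up to 4 per list by size of difference and by signal. Members of a list that no rule picks were named after their values were seen. Replicate numbers come from the titles, and the labels do not say that a shared number marks a shared culture. Deviations of same-numbered arrays from their group means correlated at 0.159, 0.313 and 0.401, which was read as possible pairing. Differently numbered arrays were not correlated in this way, so these values cannot settle whether arrays are paired. The main fit has no block, and the fit with the replicate block is among 31 alternatives. Current arm names (such as -3p for a star strand) were used to match 121 tested miRNAs to RefSeq.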

Additional observations from a re-analysis of the deposited data

Results flagged for a closer look

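The arrays also carry 780 spots for 39 viral miRNAs, which are in no comparison above. On preadipocyte arrays 2.95%, 1.92% and 3.72% of these spots were well above background. The share was higher on lithium plus MDI array 2, at 8.85%, and on array 3, at 5.26%, and it was 3.72% on array 1. On lithium plus MDI array 2, the probes for the mouse cytomegalovirus miRNAs mcmv-miR-M87-1 and mcmv-miR-m88-1 read intensities of 41.8 and 69.9, whereas no preadipocyte array detected either and none exceeded 7.35. Outside the 6 arrays, mcmv-miR-m88-1 was also detected on MDI array 3. The share of viral spots well above background was 2.69% to 4.74% on the MDI arrays and 4.1% to 4.62% on the lithium arrays. mghv-miR-M1-2 was detected on all 6 arrays at 22.4 to 32.4. What these signals come from was not tested.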

How the results depend on the processing

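Of 31 alternatives, 28 were planned and 3, those without the arrays that stood apart and the replicate block on 6 arrays, were chosen after seeing the data. Against 2 miRNAs past the threshold, 44 passed with the all-probe percentile, 1 with quantile normalization, 0 with normexp (1 at an unadjusted p under 0.05), 0 in the authors' deposited table (23 unadjusted), 0 with the 6 arrays alone (18), 0 with the slide as a fixed block (22) and 1 with it as a random block. Leaving out 1 array gave 0 to 36: 0 without preadipocyte array 1 or lithium plus MDI array 1, and 36 without lithium plus MDI array 3. Without preadipocyte array 3 and lithium plus MDI array 3, 26 passed, and without lithium array 1 in addition, 38. The replicate block kept both calls on 12 arrays (limma adjusted p = 0.0252 for miR-27a and 0.0384 for miR-31*) and changed no other call; on 6 arrays with the replicate block 0 passed (28 unadjusted). The median difference of 0.30 became -0.65 with the all-probe percentile, -0.016 with quantile normalization, -0.33 without scaling, -0.21 with normexp and -0.0117 in the authors' table, and lay between 0.12 and 0.34 when 1 array was left out. With the all-probe percentile, 6 miRNAs passed in the direction opposite to their differences, among them 2 that the naming rule picks, let-7a (-1.03, from 0.02) and miR-152 (-0.99, from 0.06). Of 2303 values of named miRNAs under alternatives, 185 changed sign with no call on either side, 39 of them with the all-probe percentile and 30 without scaling. The cause of these shifts was not tested. Signal over background limits the dim miRNAs, and the share of values at the floor is given with the processing.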
